A study of Mus musculus with 12 samples.

Results

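CC chemokines are small secreted proteins that draw leukocytes towards their source, and many of their genes lie together on mouse chromosome 11. The genes described here are Ccl2, Ccl7, Ccl11, Ccl12, Ccl8, Ccl5, Ccl9, Ccl6, Ccl3 and Ccl4. They were chosen by symbol, as 10 of the 55335 genes listed for each library, whatever their level. Their RNA was measured by RNA-seq in 12 libraries of BMDCs, which are dendritic cells obtained by culturing bone marrow with GM-CSF for 6 days, in 4 groups of 3 replicates. WT cells came from CreER mice and were left unstimulated, and WTL cells had the same genotype and a 3 h exposure to 100 ng/ml LPS. KO cells came from CreER;CTCF fl/fl mice, in which 4-OH tamoxifen on the first day of culture deletes Ctcf, and KOL cells were KO cells given the same LPS stimulation. All mice were C57BL/6, of 8 to 12 weeks and of both sexes per the study's methods, and all groups carried the CreER transgene, which the methods place at Rosa26. The CreER transgene is not limited to dendritic cells, so that deletion of Ctcf is possible in any cell of the culture, and it was not measured by cell type. Whether WT cultures also received 4-OH tamoxifen is not clear from the sources used here, so an effect of the drug and an effect of the genotype cannot be told apart.

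Each CC chemokine carries a pair of adjacent cysteines near its N-terminus, from which the family takes its name. The proteins act through G protein-coupled receptors. Ccl2, Ccl7 and Ccl12 are monocyte attractants that signal mainly through Ccr2. Ccl11, or eotaxin, acts on eosinophils through Ccr3. Ccl3, Ccl4 and Ccl5 are inflammatory chemokines that attract monocytes and T cells, with Ccl3 and Ccl5 binding Ccr1, and Ccl6 and Ccl9 are myeloid chemokines that also bind Ccr1. In myeloid cells, LPS is sensed by Tlr4, and inflammatory chemokine genes are known as targets of the NF-kB and interferon pathways downstream of it. CTCF is a DNA-binding protein that, with cohesin, shapes chromatin loops and insulates neighbouring genes from each other's enhancers, and the comparison of KO with WT asked how its loss alters expression at rest and after LPS.

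The 10 genes lie on 2 sides of a gap of 1408978 bp on mm10, with positions from GENCODE M21. The first side spans 81229 bp and holds, all on the plus strand, Ccl2 (chr11:82035571-82037453), Ccl7 (chr11:82045712-82047525), Ccl11 (chr11:82057823-82062955), Ccl12 (chr11:82101845-82103400) and Ccl8 (chr11:82115185-82116799). The second side spans 138906 bp and holds Ccl5 (chr11:83525778-83530518), Ccl9 (chr11:83572919-83578636), Ccl6 (chr11:83587882-83593087) and Ccl3 (chr11:83647844-83649355) on the minus strand, and Ccl4 (chr11:83662584-83664683) on the plus strand. All are protein-coding. A stretch of 30 coding bases around the paired cysteines, read from the GENCODE M21 transcripts for 9 of the genes, shows how these related genes differ in sequence at the feature they share. Capitals mark the cysteine codons.
Ccl2: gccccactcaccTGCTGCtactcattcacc
Ccl7: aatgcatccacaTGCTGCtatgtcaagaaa
Ccl11: atcccaacttccTGCTGCtttatcatgacc
Ccl12: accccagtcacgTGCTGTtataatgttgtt
Ccl8: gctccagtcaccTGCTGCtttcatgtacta
Ccl5: gacaccactcccTGCTGCtttgcctacctc
Ccl9: gactcttcagatTGCTGCctgtcctataac
Ccl6: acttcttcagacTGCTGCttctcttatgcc
Ccl4: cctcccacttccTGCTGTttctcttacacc
Ccl12 and Ccl4 end the pair with TGT, and the other genes shown use TGC for both cysteines. The closest pair over the coding sequence was Ccl3 and Ccl4, with 68.1% identity, followed by Ccl7 and Ccl11 with 66.3%, and by Ccl9 and Ccl6 and Ccl12 and Ccl8 with 65.1% each. No stretch of 50 bases was shared between the transcripts of any 2 of the genes. The expected counts of all but Ccl6 were whole numbers in every library, and that of Ccl6 was not whole in 1 library.

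Total expected counts were 12769773 to 16586334 per library, and ribosomal RNA genes took 5.165% of them in WTL replicate 2 and at most 1.185% in the others. Ctcf had 1051, 987 and 975 normalized counts in the WT libraries and 570, 562 and 516 in KO, so that Ctcf RNA was reduced to 54.7% of the WT mean but was still present. With LPS, the WTL libraries had 886, 817 and 745 and the KOL libraries 563, 530 and 526. These RNA counts do not measure the protein. The paper reports efficient depletion in KO cells of both the Ctcf mRNA and the CTCF protein. It also reports that CTCF binding to chromatin was lost or strongly reduced. Normalized counts are expected counts scaled to the mean effective library size, and they compare 1 gene between libraries. TPM is a level per transcript length and is used below to compare genes with each other. The study's methods call the replicates biological, but neither they nor the labels say whether each came from a separate mouse, and p-values measure the spread between these samples. In bulk RNA, fewer cells of a type and less RNA per cell cannot be told apart.

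At rest, the chemokine RNA of WT BMDCs was mostly that of Ccl6, a chemokine made without a stimulus by myeloid cells. Ccl6 stood at 3950 ± 157 TPM in WT (SD, n = 3), which was 69.7% of the summed TPM of the 10 genes. Ccl5 followed at 908 ± 29.3 TPM and Ccl9 at 612 ± 70 TPM. Ccl3 (112 ± 7.78 TPM), Ccl4 (57.1 ± 3.74), Ccl2 (26.5 ± 1.55) and Ccl7 (3.82 ± 0.947) were lower, in that order, with no overlap between neighbours. The order was the same in KO, where Ccl6 stood at 5794 ± 69.6 TPM and Ccl7 at 0.73 ± 0.397 TPM. The second side therefore held nearly all of the chemokine RNA, with 5639 ± 219 TPM against 30.6 ± 0.874 TPM on the first side in WT.

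LPS changed this order. Ccl5 became the most abundant of the genes in WTL, at 9802 ± 883 TPM and 52.3% of their sum, and Ccl6 came second at 3344 ± 369 TPM. Ccl4 came after them with 2575 ± 127 TPM, and Ccl3 (1473 ± 61.6 TPM) and Ccl9 (1421 ± 142 TPM) overlapped. In KOL, Ccl5 was again first (11504 ± 584 TPM) and Ccl6 second (5094 ± 487 TPM), and it was Ccl4 (3012 ± 207 TPM) and Ccl9 (2883 ± 598 TPM) that overlapped, both above Ccl3 (1910 ± 78). Ccl2 and Ccl7 came next after LPS in both genotypes. The 10 genes summed to 5670 ± 220 TPM in WT, 18737 ± 1217 in WTL, 7954 ± 160 in KO and 24534 ± 1692 in KOL, with no overlap between any 2 groups, and made up 0.567% of all TPM in WT and 2.45% in KOL.

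**Figure D1:**
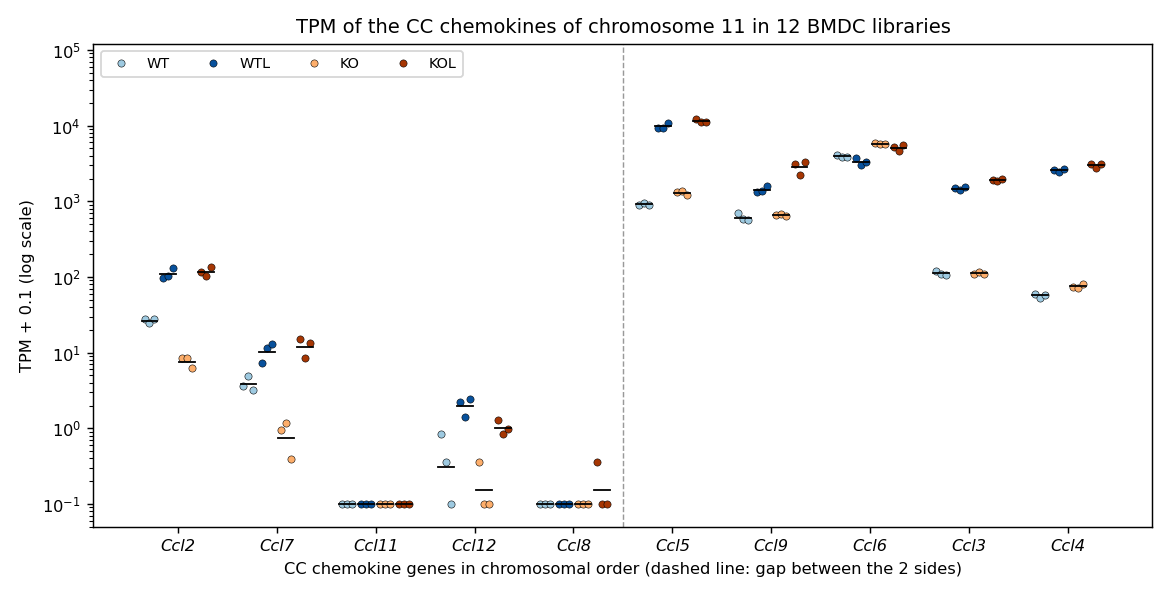
TPM plus 0.1 on a log axis for the 10 CC chemokine genes in chromosomal order, with a point for each of the 3 libraries of WT, WTL, KO and KOL and a bar at their mean on the log scale. Ccl2 and Ccl7 were lowest in KO and alike in WTL and KOL, whereas Ccl11 was at 0 in every library and Ccl8 in all but 1.

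**Figure D2:**
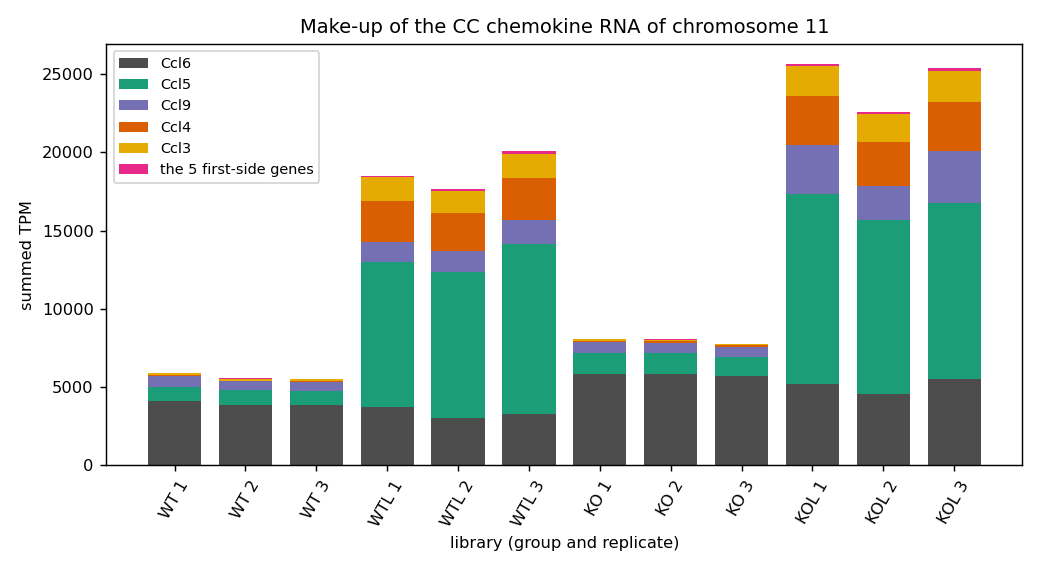
Summed TPM of the 10 genes in each of the 12 libraries, stacked by gene, with the 5 genes of the first side as 1 block. Unstimulated libraries were mostly Ccl6, and in LPS-stimulated libraries Ccl5 made up 44.3% to 54.0% of the sum.

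The response of WT cells to LPS was asked first, in WTL against WT. Of the 10 genes, 7 had enough counts to be tested, and 6 of these rose by more than 2-fold at an adjusted p under 0.05 in edgeR's quasi-likelihood test, where 12.6% of all 14008 genes tested rose and 9.99% fell. The median log2 fold change of the 7 was 2.58, against -0.018 for all genes tested. The genes that rose most were the inflammatory chemokines of the second side. Ccl4 had 261, 240 and 271 normalized counts in WT and 16195, 16819 and 16909 in WTL, a difference of 6.01 on the log2 scale (SE 0.09, adjusted p = 6.8e-15). The WTL libraries thus lay 64.6-fold above WT on average. Ccl3, its neighbour 13228 bp away, went from 655, 622 and 616 normalized counts to 11543, 12086 and 11997, a difference of 4.23 on the log2 scale (SE 0.07, adjusted p = 8.5e-15). Ccl5, which also recruits T cells, had 2702, 3033 and 3010 normalized counts in WT and 40980, 46344 and 48846 in WTL, a difference of 3.96 on the log2 scale (SE 0.09, adjusted p = 1.3e-13). For each of these genes the lowest WTL library was far above the highest WT library.

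The monocyte attractants of the first side rose from lower levels. Ccl2 had 164, 153 and 175 normalized counts in WT and 828, 974 and 1123 in WTL, a difference of 2.58 on the log2 scale (SE 0.14, adjusted p = 1e-09). Ccl7, 8258 bp downstream, had 20.2, 29.4 and 19.0 in WT and 59.3, 104 and 110 in WTL, a difference of 2.00 on the log2 scale (SE 0.30, adjusted p = 5.2e-05). WTL replicate 1 was the lowest of its group for both genes, and still above every WT library.

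The Ccr1 ligands Ccl9 and Ccl6, which lie 9245 bp apart on the same strand, responded differently from each other. Ccl9 rose from 14674, 13978 and 14186 normalized counts in WT to 42586, 40560 and 40986 in WTL, a difference of 1.53 on the log2 scale (SE 0.07, adjusted p = 1e-10). Ccl6 had 48774, 46616 and 47639 normalized counts in WT and 63491, 54384 and 52692 in WTL, a difference of 0.25 on the log2 scale (SE 0.08, adjusted p = 0.01), which was 1.19-fold and not past the cutoff. The groups did not overlap in normalized counts, but on the TPM scale the direction turned, with a log2 fold change of -0.25 by limma on log2(TPM + 1), where the median of all genes was -0.438. With each library centred on its median gene, an alternative added after seeing the data, the TPM value was 0.25. A direction for Ccl6 after LPS is therefore not given. Within a library, where no scaling between libraries enters, the ratio of Ccl9 to Ccl6 counts was 0.298 to 0.301 in WT and 0.671 to 0.778 in WTL.

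The 250 bases upstream of the RefSeq start of Ccl9, Ccl6 and Ccl3 are shown because these genes of the second side differed in their LPS response. They were read 5′ to 3′ on the strand of the gene, on GRCm38.p6, from RefSeq promoters that were at hand for 5 of the 10 genes (Ccl3, Ccl6, Ccl8, Ccl9 and Ccl12). The motifs searched, on both strands, were kB-like GGGNNNNNCC, AP-1 TGANTCA, GAAANNGAAA of interferon response elements and TTCNNNGAA of STAT sites. Capitals mark matches.
Ccl9, chr11:83578637-83578886, minus strand: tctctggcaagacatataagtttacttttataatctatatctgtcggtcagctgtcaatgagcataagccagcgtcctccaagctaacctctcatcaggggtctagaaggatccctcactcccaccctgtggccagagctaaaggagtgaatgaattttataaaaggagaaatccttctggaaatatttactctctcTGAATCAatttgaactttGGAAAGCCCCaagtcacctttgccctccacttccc
Ccl6, chr11:83593088-83593337, minus strand: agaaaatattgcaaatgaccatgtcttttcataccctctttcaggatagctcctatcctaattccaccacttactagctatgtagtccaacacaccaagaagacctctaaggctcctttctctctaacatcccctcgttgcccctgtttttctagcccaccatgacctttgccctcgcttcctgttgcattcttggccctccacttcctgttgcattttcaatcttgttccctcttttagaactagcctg
Ccl3, chr11:83649379-83649628, minus strand: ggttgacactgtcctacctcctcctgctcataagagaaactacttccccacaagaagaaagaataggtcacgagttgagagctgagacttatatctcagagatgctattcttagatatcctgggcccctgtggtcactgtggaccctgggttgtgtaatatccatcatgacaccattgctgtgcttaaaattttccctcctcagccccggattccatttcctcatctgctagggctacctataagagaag
Ccl9 had an AP-1 match, TGAATCA, 53 bases before the start, and a kB-like match on the opposite strand, GGAAAGCCCC, 35 bases before it, and these did not overlap. No letters of these 4 motifs were found in the windows of Ccl6, Ccl3, Ccl8 or Ccl12. Among 27025 promoter windows of the same length, 45.4% held the kB-like letters and 6.9% the AP-1 letters, and 3.0% and 7.2% held the other 2, in the order given.

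In KO cells, 6 of the 7 genes tested also rose with LPS in KOL against KO, where 15.1% of all genes rose. Their median log2 fold change was 4.42, against -0.024 for all genes. Ccl2 went from 54.7, 54.7 and 40.8 normalized counts in KO to 1004, 931 and 1275 in KOL, a 21.3-fold rise (log2 fold change 4.42, SE 0.16, adjusted p = 1.4e-11). Ccl7 went from 5.38, 6.72 and 1.85 to 127, 73.7 and 121, a 22.6-fold rise (log2 fold change 4.5, SE 0.39, adjusted p = 1.6e-07). In both genes KO was the lowest of the 4 groups. Ccl4 (log2 fold change 5.77), Ccl3 (4.55), Ccl5 (3.60) and Ccl9 (2.21) rose as well, with SEs of 0.07 to 0.09. Ccl6 was 75831, 74333 and 74177 in KO and 77620, 81200 and 87312 in KOL, a difference of 0.13 on the log2 scale (SE 0.08, adjusted p = 0.14), and -0.19 on the log2(TPM + 1) scale.

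The effect of CTCF deficiency at rest was asked in KO against WT, and it ran in opposite directions on the 2 sides. Of the 7 genes tested, the 2 of the first side fell and 3 of the 5 on the second side rose, where 17.3% of all genes tested rose and 17.2% fell. The cutoff in this comparison was 1.3-fold. Ccl2 had 164, 153 and 175 normalized counts in WT and 54.7, 54.7 and 40.8 in KO, a difference of -1.71 on the log2 scale (SE 0.18, adjusted p = 3.1e-06), which left 30.6% of the WT mean. Ccl7 had 20.2, 29.4 and 19.0 in WT and 5.38, 6.72 and 1.85 in KO, a difference of -2.28 on the log2 scale (SE 0.47, adjusted p = 0.0013). Neither gene's groups overlapped. The Ccl7 value rests on 2 to 7 expected counts per KO library, which gives it a 95% interval of -3.29 to -1.26.

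On the second side, Ccl6 had 48774, 46616 and 47639 normalized counts in WT and 75831, 74333 and 74177 in KO, a difference of 0.65 on the log2 scale (SE 0.08, adjusted p = 8.5e-06). Ccl5 had 2702, 3033 and 3010 in WT and 4611, 4617 and 4143 in KO, a difference of 0.61 on the log2 scale (SE 0.08, adjusted p = 2.5e-05). Ccl4 had 261, 240 and 271 in WT and 359, 345 and 387 in KO, a difference of 0.50 on the log2 scale (SE 0.08, adjusted p = 0.00019). Every KO library was above every WT library for these genes, by 1.41-fold to 1.57-fold on average. Ccl9 was 18194, 17911 and 18445 in KO, 1.27-fold above WT (log2 fold change 0.35, SE 0.07, adjusted p = 0.00062), just under the cutoff. In TPM, the Ccl9 groups overlapped, at 692, 576 and 567 in WT and 660, 670 and 648 in KO, and its effective length, by which TPM is divided, varied from 1751.5 to 2539.1 bases over the libraries. Ccl3 had 672, 692 and 648 normalized counts in KO, overlapping with WT, and its log2 fold change was 0.09, with a 95% interval of -0.06 to 0.23 (adjusted p = 0.32). Ccl3 and Ccl4 are neighbours on opposite strands, and the ratio of Ccl4 to Ccl3 TPM within a library was 0.480 to 0.546 in WT and 0.620 to 0.744 in KO.

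The levels of the 2 sides can also be set against each other within each library. The summed TPM of the second side was 181 to 186 times that of the first in WT and 852 to 1211 times in KO. After LPS these ratios were 137 to 174 in WTL and 166 to 201 in KOL, so that the difference seen at rest was nearly gone.

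**Figure D3:**
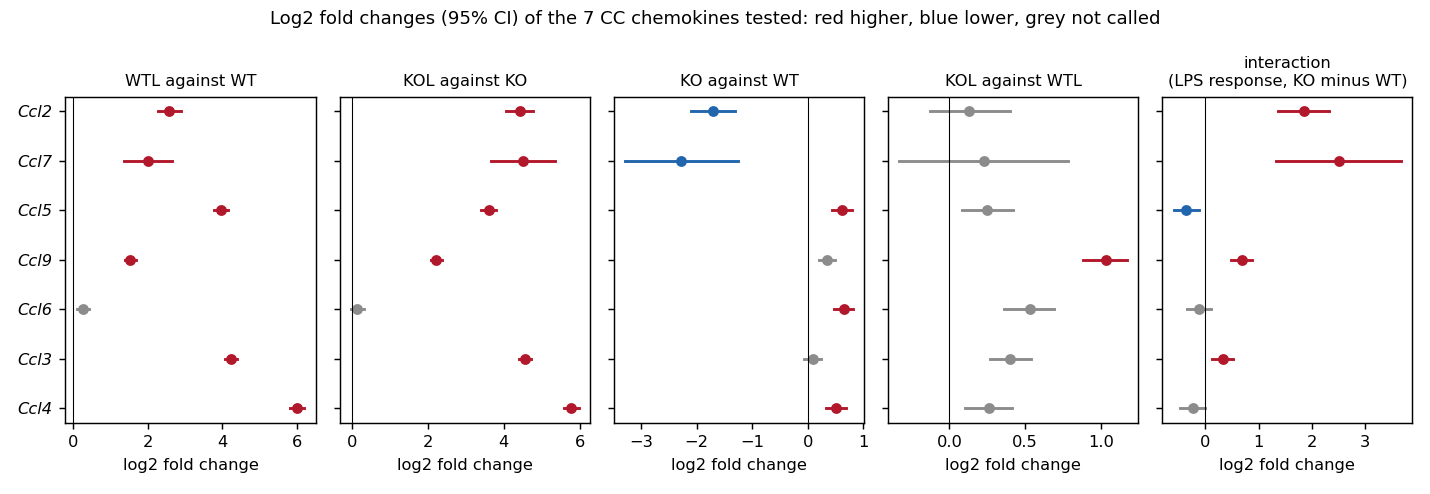
Log2 fold changes with 95% intervals of the 7 CC chemokines tested, by edgeR's quasi-likelihood test on 12 libraries, in 4 comparisons and the interaction, coloured by call. Ccl2 and Ccl7 were lower in KO than in WT and lay near 0 in KOL against WTL, Ccl9 alone was called in KOL against WTL, and the values of Ccl6 for LPS turn negative in TPM.

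After LPS, in KOL against WTL, 1 of the 7 genes tested passed the cutoff of 1.5-fold, where 12.5% of all genes tested rose and 12.5% fell. It was Ccl9, with 42586, 40560 and 40986 normalized counts in WTL and 82464, 79311 and 91271 in KOL, a difference of 1.03 on the log2 scale (SE 0.07, adjusted p = 2.1e-08). Every KOL library was far above every WTL library. Of the other genes of the second side, Ccl6 went from 63491, 54384 and 52692 in WTL to 77620, 81200 and 87312 in KOL, 1.44-fold higher (log2 fold change 0.53, SE 0.08, adjusted p = 6.2e-05). Without WTL replicate 1, the log2 fold change of Ccl6 was 0.62 and passed the cutoff, which made the count 2. Ccl3 (log2 fold change 0.40, adjusted p = 0.00013), Ccl4 (0.26, adjusted p = 0.011) and Ccl5 (0.25, adjusted p = 0.019) were 1.19-fold to 1.32-fold higher in KOL, with no overlap between the groups, and did not pass the cutoff. With no fold cutoff, all 5 genes of the second side were called higher. The share of all genes called without a cutoff is not given here, so this count does not set the 5 genes apart. For Ccl2 the KOL libraries (1004, 931 and 1275) overlapped those of WTL (828, 974 and 1123), and the log2 fold change was 0.13 with a 95% interval of -0.13 to 0.40. For Ccl7 it was 0.23 with an interval of -0.33 to 0.78. No difference was detectable after LPS for either gene, both of which were lower in KO at rest.

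Whether the LPS response itself differed between the genotypes was tested by the interaction, the log2 LPS response in KO minus that in WT. It was called higher for 4 and lower for 1 of the 7 genes tested, where 17.4% of all genes were called, 8.7% higher and 8.75% lower. This comparison uses the same libraries as the 4 above and is not separate evidence. The response was greater in KO by 1.84 for Ccl2 (SE 0.22, adjusted p = 7.6e-05) and by 2.50 for Ccl7 (SE 0.54, adjusted p = 0.006), both of which started lower in KO and reached levels that did not differ detectably. It was greater by 0.68 for Ccl9 (SE 0.09, adjusted p = 0.00021), which started slightly higher in KO and ended higher. For Ccl3 it was 0.32 (SE 0.09, adjusted p = 0.031) and for Ccl5 -0.36 (SE 0.11, adjusted p = 0.042), and both calls were close to the threshold. The call of Ccl5 was lost without any 1 of WT replicates 1, 2 and 3, WTL replicates 2 and 3, KO replicates 1 and 2, and KOL replicates 1 and 3, with values of -0.43 to -0.24 over all the leave-outs. That of Ccl3 was lost without WTL replicate 2, KO replicates 1, 2 and 3, and KOL replicate 3, with values of 0.27 to 0.40. Ccl4 (-0.24, adjusted p = 0.15) and Ccl6 (-0.12, adjusted p = 0.5, and 0.06 in TPM) were not called.

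The other 3 genes of the first side gave little or no RNA. Ccl11 had 0 counts in all 12 libraries, and Ccl8 had 1 count in KOL replicate 1 and 0 elsewhere. A count of 0 allows up to 3 counts, which are 2.52 to 4.05 normalized counts per library, and this covers counting error only. Ccl12, a monocyte attractant 38889 bp beyond Ccl11, had 2, 1 and 0 expected counts in the WT libraries and 7, 6 and 10 in WTL. It had 1, 0 and 0 in KO and 5, 3 and 4 in KOL. Each LPS-stimulated library had more counts than each unstimulated one, and the WTL counts were all above those of KOL. With the floor of 3 counts per library taken as the level of WT and KO, the Ccl12 mean was 3.21-fold higher in WTL and 1.52-fold higher in KOL. These folds leave out the counting error of the LPS-stimulated libraries and are not lower bounds. It was below the filter of the edgeR fit used for the other genes. Without that filter, edgeR's quasi-likelihood test gave an adjusted p of 0.00088 and 0.0077 for these comparisons and 0.38 for KOL against WTL. In DESeq2 and in the limma fits on TPM, which also tested it, the adjusted p was 4e-05 to 0.007 for WTL against WT, 0.00025 to 0.018 for KOL against KO and 0.053 to 0.37 for KOL against WTL.

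Ratios within a library show how LPS altered the mixture of the genes. Ccl4 to Ccl3 TPM went from 0.480 to 0.546 in WT to 1.73 to 1.76 in WTL, and was 1.52 to 1.64 in KOL. Ccl5 to Ccl6 TPM was 0.211 to 0.245 in all unstimulated libraries, 2.48 to 3.28 in WTL and 2.03 to 2.43 in KOL. The Ccl9 to Ccl6 count ratio was 0.240 to 0.249 in KO, below every WT library, and 0.977 to 1.06 in KOL, above every WTL library.

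The genes around the cluster were examined within 250 kb of each side. On the first side, 1 of 5 neighbours could be tested, the T cell and monocyte chemokine Ccl1, which was at the floor of 3 counts in WT and KO and reached 68.9 ± 25.4 normalized counts in WTL and 47.4 ± 0.503 in KOL. The Ccl1 mean was 25.0-fold above this floor in WTL and 16.5-fold above it in KOL, and like Ccl2 and Ccl7 it was not called between KOL and WTL. On the second side, 13 of 28 neighbours were tested, and 6 were higher and 0 lower in KO than in WT by edgeR's quasi-likelihood test, where 17.3% of all genes tested were higher and 17.2% lower. In KOL against WTL 6 were higher and 0 lower, where 12.5% of all genes were called in each direction. Among those with at least 50 normalized counts, the largest differences next to Ccl4 were in the WAP-domain genes. Wfdc17 had 12188 ± 663 normalized counts in WT and 30366 ± 239 in KO (log2 fold change 1.32, adjusted p = 1.4e-08), and 15540 ± 1234 in WTL and 34840 ± 3363 in KOL (1.16, adjusted p = 5.2e-08). Wfdc18 had 25.5 ± 2.38 in WT and 103 ± 6.89 in KO (2.01, adjusted p = 1.7e-07). Wfdc21 (0.81) and Heatr6 (1.17), farther along, were also higher in KO. Both Wfdc17 and Wfdc18 differed between KO and WT by more than any tested chemokine of the second side did.

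Not every neighbour followed the chemokines. Heatr9, which lies between Mmp28 and Ccl5, rose with LPS (29.1 ± 1.37 to 251 ± 27.4 normalized counts, log2 fold change 3.10, adjusted p = 1.2e-08) and was not called between KO and WT or between KOL and WTL. E230016K23Rik, a noncoding transcript on the plus strand that overlaps Ccl6, went the other way with LPS in WT, from 101 to 49.4 normalized counts (-1.03, adjusted p = 3.9e-05), and was higher in KOL than in WTL (0.74, adjusted p = 0.0015). Whether the counting used strand is not stated, so its reads and those of Ccl6 cannot be told apart with certainty. In the stretch between the 2 sides, more than 250 kb from either, 20 of 42 genes were tested. Of these 1 was higher and 4 were lower in KO than in WT, and 0 were higher and 4 lower in KOL than in WTL, and this stretch was chosen after its values were seen. The 4 of 20 lower in KO is close to the 17.2% of all genes that were lower. The gene counts of the neighbourhoods are small, and no test compared them.

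**Figure D4:**
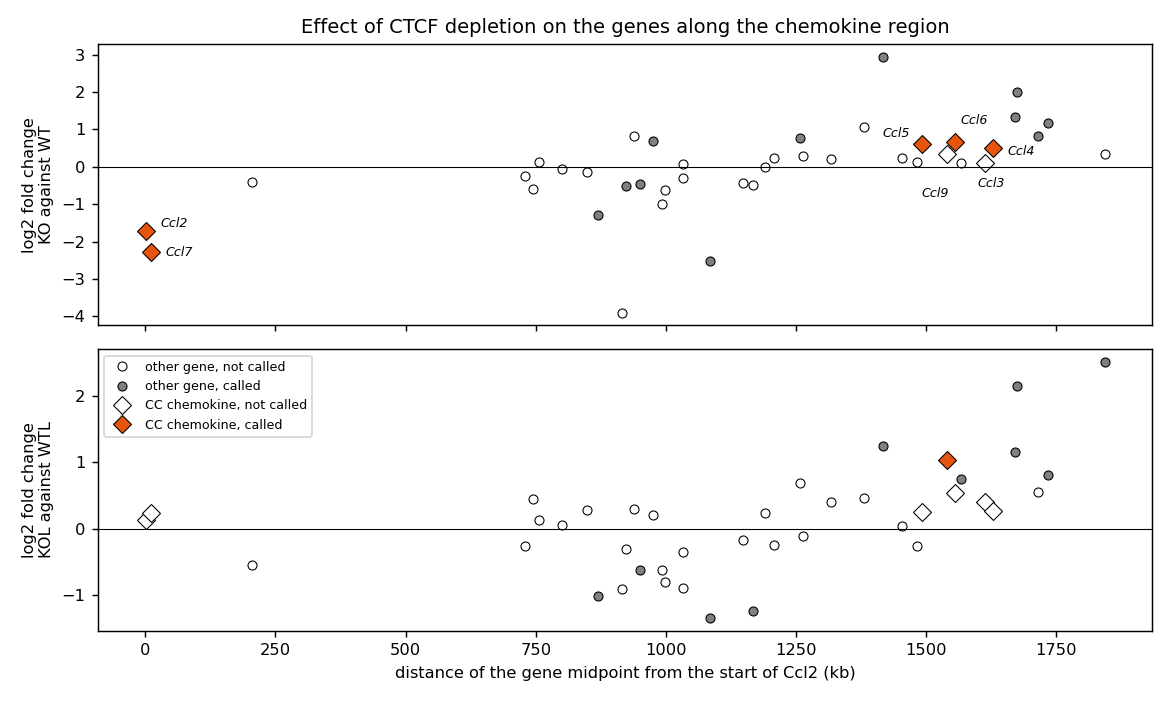
Log2 fold change of each tested gene against the distance of its midpoint from the start of Ccl2, for KO against WT above and KOL against WTL below, with CC chemokines as diamonds, other genes as circles and called genes filled. Ccl2 and Ccl7 at the left were lower in KO than in WT and near 0 after LPS. The tested genes from Ccl5 rightwards lay above 0 in KO against WT, with Ccl3 at 0.09, or -0.01 in TPM.

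Receptors and scavengers that bind these ligands were also examined. Ccr2, the receptor of Ccl2 and Ccl7, had a mean of 6563 normalized counts in WT and 16194 in KO (log2 fold change 1.3, adjusted p = 2.5e-06), so the receptor was higher where its ligands were lower. Ccr1, the receptor of Ccl6 and Ccl9, was 1789 in WT and 3480 in KO (0.96, adjusted p = 1.6e-05). Ccr3 was higher from low levels (2.02 to 6.81). The scavenger Ackr1 was at the floor in WT, and its KO mean was 2.44-fold above that floor. This fold leaves out the counting error of the KO libraries and is not a lower bound. Ccrl2, a nonsignalling receptor that binds chemerin and has been reported to bind CC chemokines, was lower (-0.63, adjusted p = 0.0018). After LPS, Ccr1 (1.35), Ccr2 (1.42), Ccr3 and Ackr1 were higher in KOL than in WTL. LPS lowered Ccr2 by a log2 fold change of -1.70 in WT and -1.58 in KO while it raised Ccl2 and Ccl7.

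The CC chemokines outside the set were a list of 11, of which 6 were tested. Ccl17 and Ccl22, ligands of Ccr4 encoded on another chromosome, fell in KO against WT, with log2 fold changes of -1.08 (17885 to 8437 normalized counts, adjusted p = 1.1e-08) and -0.70 (22535 to 13914, adjusted p = 8.8e-06). Ccl24, an eosinophil attractant, rose from 15.7 to 125 (2.99, adjusted p = 3.8e-08), and Ccl25 rose by 0.43 (adjusted p = 0.037). A fall at rest with a greater LPS response in KO was therefore not limited to Ccl2 and Ccl7, as the interaction was 0.48 for Ccl17 (adjusted p = 0.0027) and 0.64 for Ccl22 (adjusted p = 0.0018). Unlike Ccl2 and Ccl7, Ccl17 stayed lower in KOL than in WTL (-0.60, adjusted p = 4.6e-06).

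Of 33 genes of the pathways from Tlr4 to NF-kB and interferon regulatory factors, 14 rose and 1 fell with LPS in WT, where 12.6% of all genes rose, with Nfkbia, the NF-kB inhibitor, at 2.45 and Irf7 at 4.46 among the rises. In KO against WT, 2 were higher and 12 lower, where 17.3% and 17.2% of all genes were. Those that fell included the adaptor Myd88 (-0.58, adjusted p = 2.9e-06), the LPS co-receptor Cd14 (-0.65, adjusted p = 3.3e-06), and the interferon factors Irf1 (-1.32, adjusted p = 1.1e-08), Stat2 (-1.11, adjusted p = 1.9e-08) and Irf9 (-0.92, adjusted p = 5e-08). Ccl2 and Ccl7 fell with them, and Ccl4, Ccl5 and Ccl6 rose. In KOL against WTL 0 of the 33 were higher and 5 were lower, among them Myd88 (-0.77), Irf1 (-0.92) and Irf8 (-1.09), and 5 of 33 is close to the 12.5% of all genes that were lower. Of 10 genes from the GM-CSF receptor to Stat5, 1 fell in KO against WT, the kinase Jak2 (-0.50, adjusted p = 0.0025), and in KOL against WTL 1 was higher (Socs2) and 2 were lower (Csf2ra and Socs3).

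Markers of the labelled cell type and of other cells of marrow cultures moved between the groups as well. The 9 dendritic cell markers were present in every group, with a summed TPM of 12808 to 13574 in WT and 8269 to 8627 in KO, and 6 were lower in KO, led by Flt3 (-2.0) and Cd209a (-1.92), while Itgax, which encodes CD11c, was higher (0.83). Of the 10 monocyte and macrophage markers, 4 were higher, led by Ly6c2 (1.72), and 3 lower, led by Fcgr1 (-1.93), with sums of 1048 to 1133 TPM in WT and 1284 to 1331 in KO. Of 10 neutrophil markers, 8 were tested, and 7 were lower and 1 higher in KO. The 10 summed to 449 to 481 TPM in WT and 242 to 274 in KO. For these KO against WT counts, 17.3% of all genes tested were higher and 17.2% lower. After LPS the sums were 12580 to 17346 and 12599 to 17861 TPM for dendritic cells, 644 to 766 and 710 to 823 for monocytes and macrophages, and 397 to 507 and 334 to 385 for neutrophils, in WTL and KOL. In KOL against WTL, 2 of the 9 dendritic cell markers were lower (Cd209a and Flt3) and 0 higher. Of the 10 monocyte and macrophage markers, 3 were higher and 2 lower. Of the 8 neutrophil markers tested, 5 were lower and 0 higher. Among all genes tested, 12.5% were higher and 12.5% lower. The part of these markers in the chemokine differences was not tested. The sum of 9 T and NK cell markers, which mark cells known to make Ccl5, was at most 3.51 TPM in any library. Cd3g, Trac and Prf1 were under 0.1 TPM on average in every group. Klrb1c was the highest, at 1.86 TPM in WT and 2.17 in KO. It was the only 1 tested, and was higher in KOL than in WTL (0.84). The part of such cells in the Ccl5 RNA, 889 TPM or more per library, was not tested. The sum of 4 B cell markers was at most 1.69 TPM. That of 8 mast cell and basophil markers was at most 39.2, and that of 6 eosinophil markers at most 24.6. The mast cell markers Ms4a2 and Fcer1a were under 0.1 TPM on average in WT, WTL, KO and KOL. Of the 3 mast cell and basophil markers tested, Gata2 was higher (2.82) and Kit lower (-1.51) in KO than in WT. Gata2 was also higher in KOL than in WTL (3.61), and Hdc rose with LPS in WT (5.13). Of the 3 eosinophil markers tested, Siglecf (1.02) and Ccr3 (1.68) were higher in KO than in WT. Both were also higher in KOL than in WTL (0.84 and 1.8).

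The genes most like each chemokine over the 12 libraries were found by Pearson's r of log-scale levels among 10633 genes with a mean of at least 50 normalized counts. The points share libraries and fall mostly into unstimulated and LPS-stimulated groups, so r describes these libraries only. The closest to Ccl2 were Sri and Plppr4 (both r = 0.996), and those closest to Ccl7 were Nup50 (0.988) and Gnb1-ps3 (0.980), a pseudogene whose reads may belong to related copies. Plppr4 had the same low in KO as Ccl2, with 51.2 normalized counts in WT, 19.8 in KO, 272 in WTL and 286 in KOL. Ccl3 and Ccl4 had Srgn, a granule proteoglycan, in common as the closest gene (0.999 for each), followed by the costimulatory gene Cd80 (0.999) and by Aftph (0.998). Ccl5 was closest to Arl5c (0.998) and A630072M18Rik (0.997), and Ccl9 to Smarce1 (0.994) and Asb13 (0.993). For Ccl6 they were the mitochondrial gene mt-Nd1 (0.986) and Wfdc17 (0.985), its neighbour on the second side and the only one of these genes within 250 kb of the cluster.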

How the data were processed

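RNA-seq libraries of BMDCs were grouped as WT, WTL, KO and KOL by the genotype and treatment on their labels, with 3 replicates each. Trimming by the authors used Trim Galore, alignment to mm10 used STAR (version 2.5.1 in the submitters' processing notes) and quantification used RSEM. They deposited RSEM expected counts and TPM values per gene, where TPM sums to 1000000 in every library and keeps no depth. The labels name ribosomal RNA depletion and the paper's methods a stranded poly(A) kit, and whether RSEM used strand is not given in the sources used here. The methods also describe CD11c selection of the cells. FPKM columns were not used.

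Expected counts were rounded, filtered by group with filterByExpr and normalized by TMM, and 14008 genes were tested with edgeR 4.0.16 (R 4.3.3) by the quasi-likelihood test in one fit of 12 libraries. P-values were adjusted by Benjamini-Hochberg over all of them, with a threshold of 0.05 and fold cutoffs of 2 for LPS, 1.3 for KO against WT, 1.5 for KOL against WTL and none for the interaction. Errors after ± are SDs over replicates. Each SE was derived as the absolute log2 fold change divided by the square root of the test's F statistic. The 95% intervals are symmetric, were built from these SEs with a t quantile, and are approximate at low counts. The scripts were first tested on simulated data. Named genes were the 10 chemokines, fixed pathway and marker lists, neighbours within 250 kb that averaged at least 50 normalized counts in some group, and 2 genes of most similar pattern per chemokine. The members and lists were chosen with earlier results of these data known. The alternatives were DESeq2 1.42.0, edgeR on 6 libraries, DESeq2's size factors, other filters, the replicate number as a block, log2 TPM with a pseudocount of 1 or 0.1 in limma 3.58.1, no fold cutoff and leaving out each library. Positions were taken from GENCODE M21, to which 55154 of 55335 identifiers were matched. Items withheld for evaluation are not reported here.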

Additional observations from a re-analysis of the deposited data

Results flagged for a closer look

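The LPS response differed between KO and WT, by the interaction in edgeR's quasi-likelihood test, for 5 of the 7 chemokines tested, where 17.4% of all genes tested were called. As KO minus WT on the log2 scale, the difference was 1.84 for Ccl2 (adjusted p = 7.6e-05), 2.50 for Ccl7 (adjusted p = 0.006), 0.68 for Ccl9 (adjusted p = 0.00021), 0.32 for Ccl3 (adjusted p = 0.031) and -0.36 for Ccl5 (adjusted p = 0.042). For Ccl2 and Ccl7 the difference lay in the unstimulated level, since KO was lower than WT and KOL overlapped with WTL. For Ccl9 it lay in the stimulated level, where each KOL library was above each WTL library. The direction of all 5 was the same in every leave-out, whereas the calls of Ccl3 and Ccl5 each depended on single libraries. With the replicate number as a block, these calls were lost (adjusted p = 0.056 for Ccl3 and 0.065 for Ccl5), which left 3 of 7.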

How the results depend on the processing

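Every chemokine called higher or lower in WTL against WT, KO against WT or KOL against KO kept its direction and call under each alternative that could test it. With at least 10 counts in every library, Ccl7 was not tested, and the count lower in KO against WT was 1. With no fold cutoff, for which the share of all genes is not given here, the count higher in KOL against WTL was 5. It was 2 in limma on log2(TPM + 1), on log2(TPM + 0.1) and on centred TPM (added after seeing the data), and 1 to 2 when single libraries were left out. Ccl6 was the added gene in the TPM fits, at 0.61, 0.61 and 0.68. The count lower for the interaction, which was Ccl5 alone, became 0 with at least 10 counts in every library, in limma on log2(TPM + 1), on log2(TPM + 0.1) and on centred TPM, and 0 to 1 in the leave-outs. The call of Ccl3 for the interaction was lost with no filter (adjusted p = 0.093). Directions turned for values that were not called: on log2(TPM + 1) and on log2(TPM + 0.1) alike, Ccl6 was -0.25 in WTL against WT, -0.19 in KOL against KO and 0.06 for the interaction, and Ccl3 was -0.01 in KO against WT. Ccl2 in KOL against WTL was -0.01 without KOL replicate 3 and up to 0.25 in the other leave-outs. On log2(TPM + 1) the median of all genes was -0.438 in WTL against WT and -0.38 in KOL against KO, against -0.018 and -0.024 in edgeR.

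Deviations from the group means of libraries with the same replicate number had correlations of -0.57 to 0.214. With 3 libraries per group, such values cannot decide whether these libraries share an origin. With the replicate block, the interaction calls of Ccl5 (-0.36, adjusted p = 0.065) and Ccl3 (0.32, adjusted p = 0.056) were lost, the count lower became 0, and no other call of a chemokine changed. Depth limits Ccl7 in KO and Ccl12, which had 10 expected counts or fewer per library there, and Ccl8 and Ccl11, with 1 and 0 counts in all.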
